A study of Mus musculus with 54 samples.

Results

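The 9 genes described here encode enzymes of the citric acid cycle that work in the mitochondrial matrix and inner membrane. They were taken by gene name from a table of 45802 mouse genes, and all 9 were found. In the order of the reactions they are Cs (citrate synthase), Idh2 and Idh3a (isocitrate dehydrogenases), Ogdh (the first subunit of 2-oxoglutarate dehydrogenase), Suclg1 (the shared alpha subunit of succinyl-CoA ligase), Sdha and Sdhb (2 subunits of succinate dehydrogenase), Fh1 (fumarase) and Mdh2 (mitochondrial malate dehydrogenase). The expression data came from CD4+ CD25- T cells of C57BL/6 mice, taken from spleen and lymph nodes, stimulated through CD3 and CD28 and cultured for 4 days under Th17 conditions with TGF-β1, IL-6 and IL-1β. Cells received DMSO as the vehicle, Arg C (argyrin C, labelled P2A7 in the series and given there at 60 mM, a unit that could not be checked) or linezolid at 100 µM for 96 h. Living CD4+ cells were then sorted by dilution of the CellTrace Violet dye into cycle 2 (1 division), cycle 3 (2 divisions) and cycle 4 (3 or more divisions). There were 2 experiments, so that each drug had 6 samples, 2 at each cycle, and each sample was measured in 3 technical replicates, which were averaged. The 6 samples of a drug are sorted fractions of 2 cultures. The main fit removes the mean of each drug and cycle and the overall step between experiments. Its p-values therefore measure how unevenly group differences repeat in the 2 experiments, with fractions counted as separate samples. In fits within 1 experiment each drug has a single culture, and p-values measure the spread between its fractions.

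The citric acid cycle oxidises the acetyl group of acetyl-CoA, which joins oxaloacetate to form citrate, and returns to oxaloacetate while passing electrons to NAD+ and, at succinate dehydrogenase, to ubiquinone. Its enzymes are encoded in the nucleus, made in the cytosol and imported, whereas several subunits of the respiratory chain that reoxidises NADH are made on mitochondrial ribosomes. Activated T cells enlarge their mitochondria and draw on the cycle for energy and for citrate and other building blocks. Linezolid is an antibiotic that acts on bacterial ribosomes and can also block mitochondrial ribosomes, and argyrins are natural peptides that act on an elongation factor of bacteria and mitochondria.

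Values are in RPKM, in which the reads of a gene are divided by its length and by the reads of the library. The 3 technical replicates of a sample together held 24268987 to 36910109 reads by that denominator. Reads of 87 ribosomal protein genes made up 17.2 to 18.7% of the total in DMSO, 27.8 to 31.7% in Arg C and 20.9 to 27.4% in linezolid. Among 11004 genes tested the median log2 fold change was -0.47 in Arg C and -0.21 in linezolid against DMSO. Differences are also given under median-ratio scaling, which divides a sample by its median ratio to the average sample and brings both medians to 0.01. Tests are from limma on log2(RPKM + 1), with Benjamini-Hochberg adjusted p over all genes tested, and a gene is called at an adjusted p under 0.05. All T cell markers examined but one were at 0.5 RPKM or more in every sample (5 of 6, with Trac listed at 0). The 6 Th17 genes, among them Il17a and Il17f, summed to 151 to 440 RPKM in DMSO, 14.0 to 51.5 in Arg C and 19.1 to 53.1 in linezolid. The 4 B cell markers summed to at most 3.43 RPKM and the 3 NK cell markers to at most 0.607, with Ncr1 at 0. The 4 platelet and erythroid markers summed to at most 0.377 RPKM, with Hbb-bs at 0. The 5 myeloid markers summed to 8.35 to 17.8 RPKM over all samples, nearly all from Cd68 (7.73 to 17.3), while Lyz2 did not exceed 0.0593 and Csf1r 0.036. Of the 2 CD8 T cell genes, Cd8b1 lay at 4.21 to 9.45 RPKM and Cd8a at 0 to 0.394. Drug differences with library totals free of ribosomal-protein and mitochondrial genes are given in the last section. The ribosomal protein share and the Th17 genes' level were not tested as causes of the differences below. In bulk RNA fewer cells of a type and less RNA per cell cannot be told apart.

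The enzymes of the cycle did not move as one in either drug. Cs, Sdhb and Mdh2 were higher than in DMSO in both drugs, and Idh3a was lower in both, on the RPKM scale and under median-ratio scaling alike. Both drugs were compared with the same 6 DMSO samples, so that their differences are given side by side and are not independent. Against DMSO, 3 of the 9 were called higher in Arg C (Cs, Sdhb, Mdh2), beside 16.5% of all genes tested, and 5 were called lower (Idh2, Idh3a, Ogdh, Suclg1, Sdha), beside 70% of all genes. Under median-ratio scaling 7 were called higher (background 41.8%) and only Idh3a was called lower (41.4%): Idh2, Ogdh and Sdha turned to higher, Fh1 was called higher, and Suclg1 was no longer called. In linezolid 3 were called higher (Cs, Sdhb, Mdh2, background 21%) and 3 lower (Idh3a, Ogdh, Suclg1, background 54.5%). Under median-ratio scaling these were 5 higher (38%), with Sdha and Fh1 added, and 2 lower (36.3%), without Ogdh. The median log2 fold change of the 9 genes was -0.28 in Arg C and -0.00 in linezolid, against -0.47 and -0.21 over all genes, and 0.37 and 0.29 under median-ratio scaling against 0.01 over all genes in each.

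**Figure D1:**
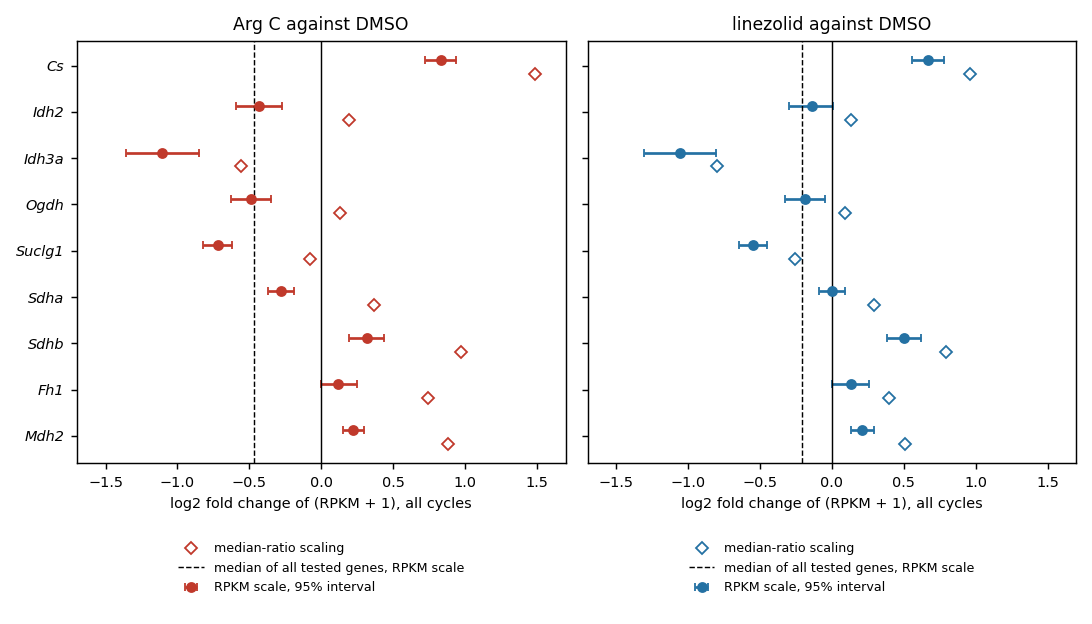
Log2 fold change of (RPKM + 1) against DMSO over all cycles for the 9 enzyme genes, in reaction order from top to bottom, for Arg C (left) and linezolid (right). Filled points with bars are the RPKM-scale estimate and its 95% interval (18 samples in the fit), open diamonds the median-ratio estimate, and the dashed line the median of all genes tested (-0.47 and -0.21). Cs, Sdhb and Mdh2 lie right of 0 and Idh3a left of 0 on both scales, whereas Idh2, Ogdh and Sdha change side in Arg C.

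Citrate synthase, the entry step, had the largest increase of the 9 in both drugs. Cs lies on chr10:128337734-128362479 (plus strand, GENCODE, GRCm38), and 7590 to 17586 reads per sample stood behind its values. In DMSO it was 86.4, 92.7 and 106 RPKM at cycles 2, 3 and 4 of experiment 1 and 96.6, 110 and 121 in experiment 2. In Arg C the same fractions held 161, 187 and 202 RPKM and 159, 185 and 200 RPKM. In linezolid they held 139, 171 and 189 RPKM and 141, 160 and 178 RPKM. Every drug sample was thus above every DMSO sample, and the experiments lay closer to each other in Arg C than in DMSO. On the scale of RPKM + 1, Cs was 1.78-fold higher in Arg C (log2 0.83 ± 0.05 SE, 95% interval 0.72 to 0.94, adjusted p = 6.91e-09) and 1.59-fold higher in linezolid (log2 0.67 ± 0.05, 0.56 to 0.78, adjusted p = 1.2e-07). Both differences were larger under median-ratio scaling, at 1.49 and 0.96. They were present at each cycle, from 0.80 to 0.88 in Arg C and from 0.61 to 0.70 in linezolid. With the 3 cycles averaged, which leaves 2 values per drug, the SE was 0.09 in each drug (adjusted p = 0.000115 and 0.000747).

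The 2 isocitrate dehydrogenases measured differ in their cofactor: Idh2 uses NADP+, and Idh3a is the catalytic alpha subunit of the NAD+-linked enzyme that drives the cycle forward. Idh3a (chr9:54586334-54604661, plus strand) had the lowest levels of the 9 genes, with 124 to 914 reads per sample. It was 6.68, 9.07 and 11.4 RPKM over cycles 2 to 4 of DMSO experiment 1 and 7.35, 8.28 and 9.56 in experiment 2. In Arg C the values were 1.84, 3.43 and 4.39 RPKM and 2.66, 3.83 and 5.56 RPKM. In linezolid they were 1.83, 2.75 and 3.86 RPKM and 3.88, 4.73 and 5.62 RPKM. No drug sample reached the lowest DMSO sample, and within each culture the level was higher at each later cycle. Idh3a fell 2.16-fold in Arg C (log2 -1.11 ± 0.12, adjusted p = 1.27e-06) and 2.09-fold in linezolid (log2 -1.06 ± 0.12, adjusted p = 3.76e-06). Under median-ratio scaling the differences were -0.56 (adjusted p = 9.48e-05) and -0.80 (5.61e-06), which makes Idh3a the one gene of the 9 called lower in both drugs on both scales. At cycle 4 alone the Arg C difference was -0.95 on the RPKM scale but missed the threshold under median-ratio scaling (-0.37, adjusted p = 0.0571).

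Idh2 (chr7:80094846-80115392, minus strand) ranged from 16.3 to 18.6 RPKM in DMSO (median 17.2), from 9.77 to 14.1 in Arg C (median 12.7) and from 11.9 to 21.6 in linezolid (median 15.4). The Arg C samples lay below all DMSO samples, and the linezolid samples lay on both sides of them. The Arg C difference was -0.43 ± 0.07 (adjusted p = 9.46e-05) on the RPKM scale, close to the median of all genes, and 0.19 (adjusted p = 0.00834) under median-ratio scaling. In linezolid Idh2 was not called on either scale (-0.14, 95% interval -0.30 to 0.01, and 0.13). It was called on the RPKM scale without DMSO cycle 4, linezolid cycle 2 or linezolid cycle 4 of experiment 2 (adjusted p = 0.0274, 0.0178 and 0.0465). In linezolid the log2 difference was -0.33 (adjusted p = 0.0277) within experiment 1 and 0.04 (adjusted p = 0.73) within experiment 2. Each of these rests on a single culture per drug.

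Ogdh (chr11:6291633-6356642, plus strand) encodes the subunit of 2-oxoglutarate dehydrogenase that decarboxylates 2-oxoglutarate. Its level was 16.4 to 18.7 RPKM in DMSO (median 16.9), 9.91 to 14.8 in Arg C (median 12.3) and 11.6 to 20.0 in linezolid (median 15.5). Arg C and DMSO samples did not overlap, and the linezolid samples overlapped with both. The Arg C difference of -0.49 ± 0.07 (adjusted p = 1.14e-05) was about the median of all genes and became 0.13 (adjusted p = 0.0133) under median-ratio scaling. The linezolid difference was -0.19 ± 0.07 (adjusted p = 0.0178) and became 0.09, with an adjusted p of 0.0844, under median-ratio scaling. That call was lost within experiment 2 (-0.05, adjusted p = 0.552), where each drug had a single culture. The culture as a random block (adjusted p = 0.073) and the 3 cycles averaged (0.188) also ended it. So did upper-quartile scaling (-0.04, adjusted p = 0.41) and totals free of ribosomal-protein and mitochondrial genes (-0.11, adjusted p = 0.0942). It was also lost without cycle 2, 3 or 4 of DMSO in experiment 1 (adjusted p = 0.0651, 0.0616 and 0.0601) and without linezolid cycle 4 of experiment 1 (0.0581).

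Suclg1 (chr6:73248382-73276911, plus strand) pairs with either Sucla2 or Suclg2 to form the ATP- or GTP-producing succinyl-CoA ligase. Its level was 42.7 to 52.7 RPKM in DMSO (median 46.5), 24.1 to 30.7 in Arg C (median 29.2) and 28.6 to 33.9 in linezolid (median 32.5). Neither drug overlapped with DMSO. Suclg1 fell 1.65-fold in Arg C (log2 -0.72 ± 0.05, adjusted p = 1.05e-08) and 1.46-fold in linezolid (log2 -0.55 ± 0.05, adjusted p = 3.03e-07). Under median-ratio scaling the linezolid difference was still called (-0.26, adjusted p = 0.000876), and the Arg C difference was not (-0.08, adjusted p = 0.203).

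Succinate dehydrogenase is both a cycle enzyme and complex II of the respiratory chain. Sdha (chr13:74322254-74350280, minus strand) is its flavoprotein, which oxidises succinate, and Sdhb (chr4:140961203-140979193, plus strand) its iron-sulphur subunit, which passes the electrons on. Sdha was nearly constant in DMSO, at 66.6 to 70.0 RPKM (median 68.7), and lay at 48.7 to 62.7 in Arg C (median 55.6) and 61.1 to 76.2 in linezolid (median 67.5). Arg C samples were all below DMSO on this scale. Linezolid samples spread around DMSO, highest at cycle 2 (74.1 and 76.2) and lower at cycle 4 (61.1 and 67.1). The Arg C difference was -0.28 ± 0.04 (adjusted p = 2.54e-05) on the RPKM scale and turned to 0.37 (adjusted p = 6.52e-06) under median-ratio scaling. In linezolid it was -0.00 (95% interval -0.09 to 0.09) and 0.29 (adjusted p = 8.71e-05) on these scales.

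Sdhb was 44.9, 50.1 and 62.3 RPKM over cycles 2 to 4 of DMSO experiment 1 and 48.0, 49.2 and 56.6 in experiment 2. In Arg C it was 47.5, 60.1 and 71.7 RPKM and 60.2, 72.6 and 79.9 RPKM. In linezolid it was 61.7, 67.5 and 79.1 RPKM and 70.8, 78.4 and 85.0 RPKM. At the same cycle and experiment each drug sample was above its DMSO counterpart (6 of 6 in each drug), although the ranges over all cycles overlapped. Sdhb was 1.25-fold higher in Arg C (log2 0.32 ± 0.06, adjusted p = 0.000151) and 1.41-fold higher in linezolid (log2 0.50 ± 0.06, adjusted p = 4.35e-06), and 0.97 and 0.79 on the log2 scale under median-ratio scaling. At cycle 2 the Arg C difference of 0.20 was not called on the RPKM scale (adjusted p = 0.0781).

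Fh1 (chr1:175600374-175625635, minus strand), which hydrates fumarate to malate, was called in neither drug on the RPKM scale. It was 12.1 to 13.4 RPKM in DMSO (median 12.8), 11.6 to 15.9 in Arg C (median 14.2) and 13.3 to 15.4 in linezolid (median 13.9), with 582 to 899 reads per sample. The groups overlapped. The differences were 0.12 (95% interval -0.00 to 0.25, adjusted p = 0.0638) and 0.13 (0.00 to 0.26, adjusted p = 0.0586), and 0.74 and 0.40 under median-ratio scaling, where both were called (adjusted p = 2.11e-08 and 1.12e-05). Fh1 was also called in both drugs under upper-quartile scaling (0.56 and 0.27, adjusted p = 2.78e-07 and 0.000271). The same held with totals free of ribosomal-protein and mitochondrial genes (0.29 and 0.21, adjusted p = 0.000181 and 0.00287). Within an experiment each drug had a single culture, with its sorted fractions as the samples. On that footing Fh1 was called on the RPKM scale within experiment 2 (0.25 in Arg C and 0.22 in linezolid, adjusted p = 0.00525 and 0.0156), and not within experiment 1 (-0.01 and 0.04). It was also called in Arg C without DMSO cycle 3 or 4 or Arg C cycle 2 of experiment 1, at adjusted p = 0.0458, 0.0307 and 0.0142. In linezolid it was called without DMSO cycle 2, 3 or 4 of experiment 1 (adjusted p = 0.049, 0.0448 and 0.0299) without Arg C cycle 2 of experiment 1 or 2 (0.0386 and 0.0387) and without the third technical replicates (0.0353).

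Mdh2 (chr5:135778480-135790398, plus strand) closes the cycle by oxidising malate to oxaloacetate and was the most abundant of the 9 in DMSO, at 152 to 171 RPKM (median 159). It lay at 162 to 210 RPKM in Arg C (median 194) and 173 to 208 in linezolid (median 184). Linezolid samples were all above DMSO. In Arg C the cycle 2 samples (162 and 163) lay within the DMSO range and the other 4 above it. Mdh2 was 1.17-fold higher in Arg C (log2 0.22 ± 0.04, adjusted p = 6.62e-05) and 1.16-fold higher in linezolid (log2 0.21 ± 0.04, adjusted p = 0.000166), and 0.88 and 0.51 on the log2 scale under median-ratio scaling. Averaging the 3 cycles, which leaves 2 values per drug, ended the linezolid call (adjusted p = 0.0575).

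**Figure D2:**
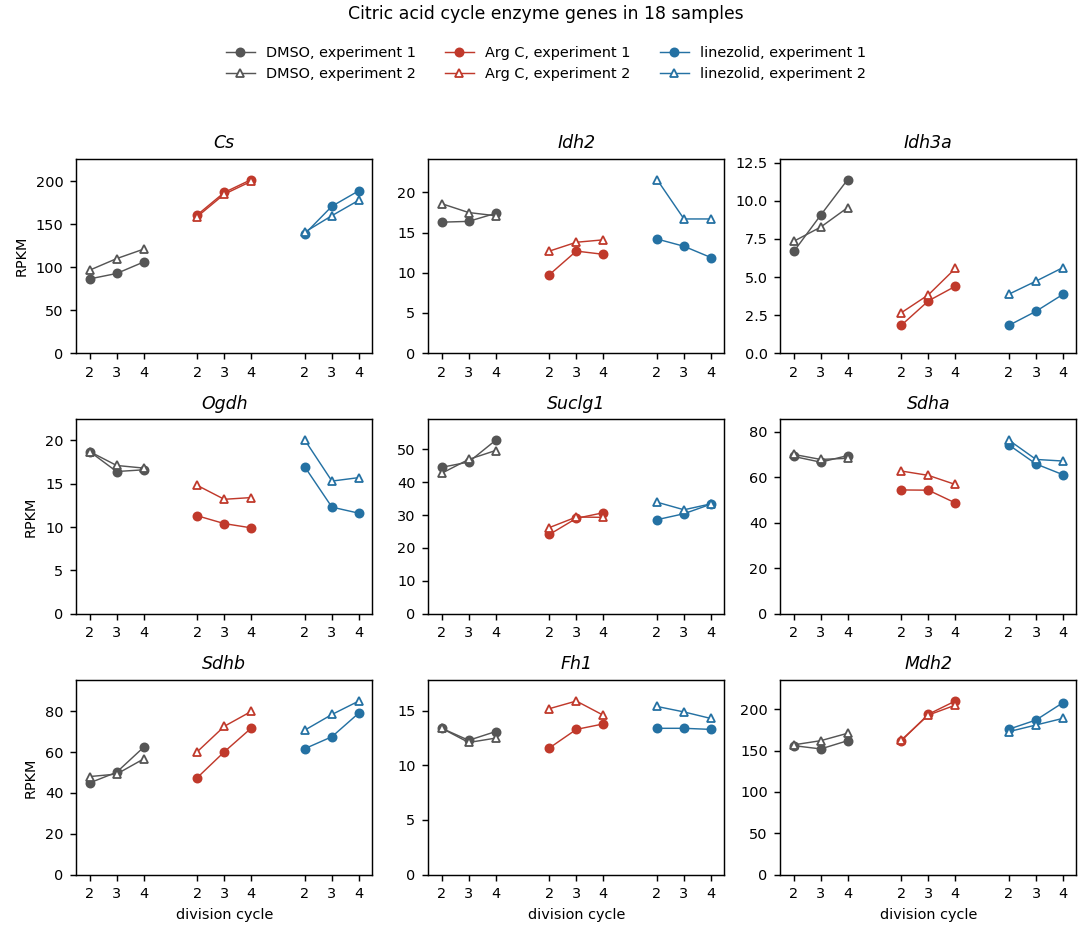
RPKM of each of the 9 genes (vertical axes from 0) in the 18 samples, by division cycle within DMSO (grey), Arg C (red) and linezolid (blue). Each point is the mean of 3 technical replicates, and lines join the fractions of 1 culture (filled circles experiment 1, open triangles experiment 2). On this scale all Arg C and linezolid points of Cs lie above all DMSO points, and those of Idh3a and Suclg1 lie below.

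In counts of separated samples, Cs was the one gene of the 9 whose 6 Arg C values lay above all DMSO values (background 7.65% of genes), and 5 lay below (Idh2, Idh3a, Ogdh, Suclg1, Sdha, background 55.1%). In linezolid Cs and Mdh2 lay above (9.19%) and Idh3a and Suclg1 below (32.8%). The lower counts are near or under the share of all genes, which move down on the RPKM scale. Under median-ratio scaling Cs, Sdha, Sdhb, Fh1 and Mdh2 lay above all DMSO samples in each drug (27.6% of genes in Arg C and 21.1% in linezolid). In Arg C 0 of the 9 lay below (28.6%), and in linezolid Idh3a alone did (20.4%).

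Ratios between 2 genes of a sample do not depend on the scaling, and they show the uneven change directly. The RPKM of Cs was 1.94 to 2.44 times that of Suclg1 in DMSO, 4.17 to 5.66 times in linezolid and 6.05 to 6.82 times in Arg C, so that the 3 drugs did not overlap. Cs over Idh3a was 9.25 to 13.3 in DMSO, 35.9 to 87.8 in Arg C and 31.6 to 75.8 in linezolid. Within succinate dehydrogenase, Sdhb over Sdha was 0.65 to 0.896 in DMSO (median 0.739), 0.872 to 1.47 in Arg C (median 1.15) and 0.833 to 1.29 in linezolid (median 1.09), with a small overlap. Sdhb over Sdhc, one of the membrane anchors, was 0.733 to 0.859 in DMSO, 1.14 to 1.63 in Arg C and 1.09 to 1.46 in linezolid, with no overlap between DMSO and either drug. Sdhb over Sdhd, the other anchor, overlapped between DMSO (0.506 to 0.701) and both drugs (0.454 to 0.705 and 0.618 to 0.869). Within the NAD+-linked isocitrate dehydrogenase, Idh3a was 0.0638 to 0.109 of Idh3b in DMSO, 0.0137 to 0.0451 in Arg C and 0.0164 to 0.0506 in linezolid. The alpha subunit gene was thus measured far below the others of its complex in every sample. Mdh2 over Fh1 overlapped between DMSO (11.6 to 13.6) and both drugs (10.7 to 15.2 in Arg C, 11.2 to 15.6 in linezolid). So did Ogdh over its partner Dlst (0.484 to 0.614 in DMSO, 0.347 to 0.692 in Arg C, 0.333 to 0.752 in linezolid). Idh3a over Idh3g, another subunit, separated DMSO from both drugs. Suclg1 and Sucla2, each over Suclg2, separated DMSO from Arg C and not from linezolid. These ratios were chosen after values were seen and are given as descriptions.

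**Figure D3:**
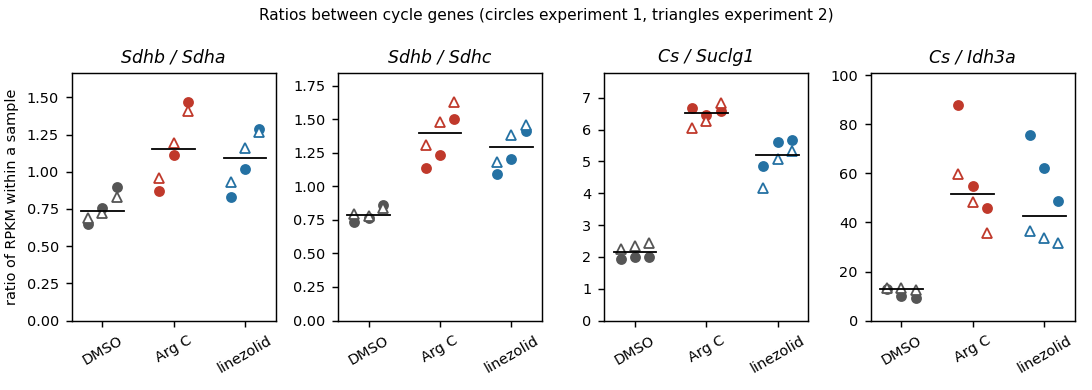
Ratio of RPKM between 2 genes in each of the 18 samples (vertical axes from 0), by drug, with cycles 2 to 4 from left to right within a drug, circles for experiment 1, triangles for experiment 2 and a bar at the median of 6 samples. The median of Sdhb over Sdha was 0.739 in DMSO, 1.15 in Arg C and 1.09 in linezolid, and that of Cs over Suclg1 was 2.14, 6.52 and 5.19.

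The sequences upstream of 4 of these genes are shown because they pair the gene with the largest increase and one that was lower (Cs and Suclg1) with 2 subunits of a single enzyme whose ratio differed between drugs and vehicle (Sdha and Sdhb). They are the 250 bases before the RefSeq start (GRCm38.p6), 5′ to 3′ on the gene's strand, and capitals mark matches on either strand to the box CCAAT, to the core that hypoxia-inducible factors bind (ACGTG) or to the motif of nuclear respiratory factor 1 (GCATGCGC). GC boxes are left in lower case. RefSeq and GENCODE place some starts differently. By the GENCODE positions given above, the windows of Suclg1, Sdha and Sdhb run into the gene, and that of Cs does not. The marked Sdhb matches lie inside the gene by those positions. All matches are placed by the RefSeq starts.
Cs, chr10:128337477-128337726, plus strand: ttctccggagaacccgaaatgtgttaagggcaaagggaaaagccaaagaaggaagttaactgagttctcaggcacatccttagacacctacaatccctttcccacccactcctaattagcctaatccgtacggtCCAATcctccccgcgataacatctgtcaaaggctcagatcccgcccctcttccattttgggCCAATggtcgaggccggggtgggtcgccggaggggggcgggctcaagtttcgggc
Suclg1, chr6:73248255-73248504, plus strand: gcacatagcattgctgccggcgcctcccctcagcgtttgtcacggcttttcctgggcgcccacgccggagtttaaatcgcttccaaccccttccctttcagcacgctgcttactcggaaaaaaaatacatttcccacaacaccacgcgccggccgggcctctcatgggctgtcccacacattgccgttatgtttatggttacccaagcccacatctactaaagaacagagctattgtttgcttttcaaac
Sdha, chr13:74350241-74350490, minus strand: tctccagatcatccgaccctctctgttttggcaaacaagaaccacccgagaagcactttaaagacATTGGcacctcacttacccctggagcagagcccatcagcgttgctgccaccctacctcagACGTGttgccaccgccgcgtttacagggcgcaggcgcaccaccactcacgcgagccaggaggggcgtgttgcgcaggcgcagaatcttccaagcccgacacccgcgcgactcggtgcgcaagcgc
Sdhb, chr4:140961021-140961270, plus strand: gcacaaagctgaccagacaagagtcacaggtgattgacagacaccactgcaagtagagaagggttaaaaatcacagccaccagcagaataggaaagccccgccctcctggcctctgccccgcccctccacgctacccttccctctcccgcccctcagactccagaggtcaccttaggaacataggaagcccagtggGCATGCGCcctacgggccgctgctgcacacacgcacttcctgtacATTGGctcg
Of the 9 genes, 8 had an entry and Idh3a had none, and Ogdh had 6 starts, any of which could hold a match. CCAAT was found upstream of 6 (Cs, Idh2, Ogdh, Sdha, Sdhb, Fh1), beside 33.8% of 32851 mouse promoters, and GGGCGG upstream of 6 (Cs, Idh2, Ogdh, Sdhb, Fh1, Mdh2), beside 32.7%. GCATGCGC was found at Ogdh and Sdhb (2.26% of promoters), ACGTG at Ogdh and Sdha (16.6%) and TGACGTCA, the cyclic AMP response element, at Ogdh and Mdh2 (1.55%). CACGTG, which contains ACGTG, was found at Ogdh alone (6.02%). Neither AAGGTCA, bound by oestrogen-related receptors (4.08%), nor TGATGNAA, the motif of ATF4 with C/EBP (3.45%), occurred in these windows. The Suclg1 window held none of the 8 motifs. These matches are descriptions of the letters.

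Arg C and linezolid were then compared directly. On the RPKM scale 1 gene was called higher in Arg C (Cs, 0.16 ± 0.05, adjusted p = 0.0111, background 7.64%) and 5 were called lower, namely Idh2 (-0.29), Ogdh (-0.30), Suclg1 (-0.18), Sdha (-0.28) and Sdhb (-0.18), beside 59.8% of all genes. Under median-ratio scaling 6 were called higher (Cs 0.53, Idh3a 0.24, Suclg1 0.18, Sdhb 0.18, Fh1 0.34 and Mdh2 0.38, background 32.1%) and 0 lower (29.5%). Idh2, Ogdh and Sdha were at 0.06, 0.04 and 0.08 there and were not called. Of the 9, only Cs was thus called in the same direction on both scales. Idh3a did not differ detectably on the RPKM scale (-0.05, 95% interval -0.30 to 0.21), nor did Fh1 (-0.01, -0.13 to 0.12) or Mdh2 (0.01, -0.07 to 0.09). For every one of the 9 the ranges of the 2 drugs overlapped on the RPKM scale (0.645% of all genes were separated upwards and 17.3% downwards). The calls of Cs, Suclg1 and Sdhb were lost with the culture as a random block (adjusted p = 0.0584, 0.0924 and 0.0909). Within experiment 1 those of Cs, Idh2 and Suclg1 were lost (adjusted p = 0.0739, 0.252 and 0.135), and within experiment 2 that of Sdhb (0.0581). Within an experiment each drug had a single culture. With the 3 cycles averaged only Sdha was called (adjusted p = 0.0338).

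The course over divisions was compared within each drug as cycle 4 against cycle 2. Levels of Cs, Idh3a, Sdhb and Mdh2 were higher at cycle 4 than at cycle 2 in each of the 6 cultures, whether or not the test was passed. In DMSO 1 of 9 genes was called higher (Sdhb, 0.35 ± 0.10, adjusted p = 0.0487, background 4.45%) and 0 lower (3.22%), 4 had an unadjusted p under 0.05 and limma-voom on recovered reads called 0. The Sdhb call was lost in 17 of 21 settings that left out 1 sample or technical replicate. Cs (0.30, adjusted p = 0.0523) lay just outside the threshold and was called in 4 of those settings. In Arg C 5 were called higher (Idh3a 0.88, Sdhb 0.49, Mdh2 0.36, Cs 0.33 and Suclg1 0.24, background 18.3%) and 0 lower (13.7%). In linezolid 4 were called higher (Idh3a 0.61, Cs 0.38, Sdhb 0.31 and Mdh2 0.18, background 15%) and 2 lower (Ogdh -0.42 and Sdha -0.23, background 17.9%). Under median-ratio scaling 1 was called higher in DMSO (Sdhb, background 2.9%) and 0 lower (3.07%). In Arg C 3 were higher (Idh3a, Sdhb and Mdh2, background 18.6%) and 0 lower (19.4%), and in linezolid 3 were higher (Cs, Idh3a and Sdhb, background 17.4%) and Ogdh was lower (17.8%).

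The calls on the course rested on few samples. Idh3a, Sdhb and Mdh2 in Arg C were called in all 21 settings that left out a sample or a technical replicate. Cs and Suclg1 in Arg C were not, with adjusted p = 0.0972 and 0.222 without Arg C cycle 4 of experiment 1 and 0.0964 and 0.0627 without Arg C cycle 2 of experiment 2. The Suclg1 call was also lost without Arg C cycle 2 of experiment 1 (0.195), Arg C cycle 4 of experiment 2 (0.0505) or the first technical replicates (0.0762). Without linezolid cycle 4 of experiment 1 none of the 6 linezolid calls held (Cs 0.31, adjusted p = 0.0673). Without linezolid cycle 2 of experiment 2 Ogdh, Sdha, Sdhb and Mdh2 were no longer called (adjusted p = 0.07, 0.0775, 0.0823 and 0.16), and without cycle 2 of experiment 1 Cs alone was called higher and Idh2 alone lower (-0.48, adjusted p = 0.0322). Without linezolid cycle 4 of experiment 2, Idh3a, Sdha and Sdhb were no longer called (0.148, 0.0539 and 0.0673), and the Mdh2 call was lost in 14 of the 21 settings. The cycles are fractions of the same cultures, which the fit above does not use. With the culture as a random block, 4 genes were called higher in the DMSO course, namely Cs (adjusted p = 0.00109), Idh3a (0.00731), Suclg1 (0.0192) and Sdhb (0.0021). In that fit Idh2 was also called higher (0.22, adjusted p = 0.0417) and Sdha lower (-0.15, 0.0175) in Arg C, and Idh2 lower in linezolid (-0.29, 0.0105).

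Whether the drug difference itself changed from cycle 2 to cycle 4 was tested as an interaction. None of the 9 was called for Arg C (0 of 9 beside 7.92% of genes, 1 with an unadjusted p under 0.05, and 0 by limma-voom) or for linezolid (0 of 9 beside 5.39%, 0 at an unadjusted p under 0.05, and 0 by limma-voom). The nearest was Mdh2 in Arg C, at 0.05 at cycle 2 and 0.32 at cycle 4, a difference of 0.27 (95% interval 0.08 to 0.46, adjusted p = 0.0885). For Idh3a the interval was wide, from -0.26 to 0.99 in Arg C and from -0.53 to 0.72 in linezolid. With the culture as a random block Mdh2 was called for Arg C (0.27, adjusted p = 0.00838) and Sdha for linezolid (-0.21, adjusted p = 0.03). Neither of these 2 differences was called in the main fit. By that fit, a course called in one drug and not in another is not shown to differ from that in DMSO.

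**Figure D4:**
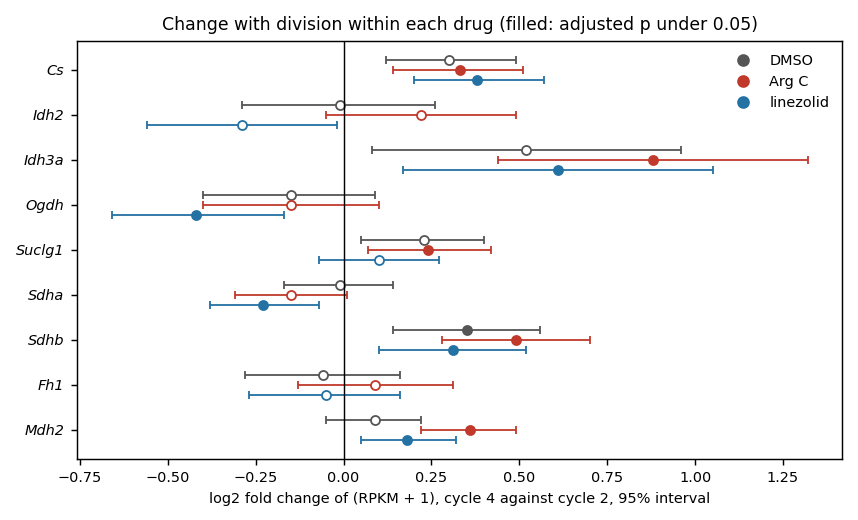
Log2 fold change of (RPKM + 1) at cycle 4 against cycle 2 within DMSO (grey), Arg C (red) and linezolid (blue), with 95% intervals, for the 9 genes in reaction order (2 samples per drug and cycle). Filled points have an adjusted p under 0.05. Cs, Idh3a, Suclg1, Sdhb and Mdh2 lie right of 0 in every drug, and Ogdh and Sdha are called lower only for linezolid (-0.42 and -0.23).

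The drug differences were compared between the 2 experiments. Each drug had a single culture in each, so the calls rest on the spread of sorted fractions. They cannot tell experiments from cultures. For Arg C, 5 genes had a higher log2 difference in experiment 2 (Idh3a, Ogdh, Sdha, Sdhb, Fh1, background 30.2%) and Cs a lower one (background 5.43%). For linezolid 4 were higher (Idh2, Idh3a, Ogdh, Sdhb, background 37.5%) and Cs was lower (6.8%). The median over all genes was 0.14 and 0.17. Under median-ratio scaling 0 were higher (13.4%) and 2 lower for Arg C (Cs and Mdh2, background 16.7%), and for linezolid 1 was higher (Idh3a, 16.1%) and 3 lower (Cs, Sdha and Mdh2, 20.9%). On the RPKM scale the direction of the drug difference was the same in both experiments for Cs, Idh3a, Ogdh, Suclg1, Sdhb and Mdh2 in each drug. Cs was 0.94 and 0.72 higher in Arg C and 0.80 and 0.54 higher in linezolid in experiments 1 and 2. Idh3a was -1.28 and -0.94 in Arg C and -1.41 and -0.71 in linezolid. The first part of the libraries' sample identifiers, whose meaning no label gives, also differs between the experiments, and the 2 cannot be told apart.

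The remaining 9 genes of the same reactions likewise split. In Arg C 5 were called higher (16.5% of all genes), 3 lower (70%) and 1 was not called, with a median of 0.21 against -0.47 over all genes. In linezolid 3 were higher (21%) and 3 lower (54.5%), with a median of 0.08 against -0.21. Under median-ratio scaling 8 were higher (41.8%) and 1 lower (41.4%) in Arg C, and in linezolid 8 were higher (38%) and 0 lower (36.3%). Idh3g, a regulatory subunit of the same enzyme as Idh3a, had a median of 53.3 RPKM in DMSO, 103 in Arg C and 91.3 in linezolid, and its highest DMSO sample (66.1) lay below its lowest drug sample (73). Its log2 difference was 0.83 and 0.70 (adjusted p = 2.93e-08 and 3.13e-07), opposite to that of Idh3a, and 1.48 and 0.99 under median-ratio scaling. Idh3b, the beta subunit, was 0.28 higher in Arg C and not called in linezolid (0.11), with 0.93 and 0.40, both called, under median-ratio scaling. Of the partners of Suclg1, Sucla2 fell by 0.79 in Arg C and by 0.40 in linezolid on the RPKM scale. Under median-ratio scaling it was still called in Arg C (-0.18) and was not in linezolid (-0.13, adjusted p = 0.0674). Suclg2 was 0.21 higher in Arg C and not called in linezolid (-0.08), and was called higher in both under median-ratio scaling (0.79 and 0.17). Among the succinate dehydrogenase anchors Sdhc was at -0.46 and -0.18, and Sdhd at 0.29 and 0.12, all 4 called. Under median-ratio scaling Sdhc turned to 0.19 and 0.11, and Sdhd was at 0.94 and 0.41, again all called. Dlst, the succinyl transferase that works with Ogdh, was at -0.32 and -0.10 on the RPKM scale and 0.32 and 0.19 under median-ratio scaling, and Dld, their shared dehydrogenase, was not called on the RPKM scale (-0.07 and 0.08) and was higher under median-ratio scaling (0.57 and 0.36).

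Steps that feed the cycle were read from lists of the pathway. Of 14 genes for pyruvate entry 13 were tested, and in Arg C 3 were higher and 10 lower (median -0.90 against -0.47 over all genes), where 16.5% of all genes were called higher and 70% lower. In linezolid 3 were higher and 9 lower (median -0.49 against -0.21), beside 21% and 54.5% of all genes. Under median-ratio scaling 4 were higher and 8 lower in Arg C (median -0.26, background 41.8% and 41.4%), and 3 higher and 7 lower in linezolid (median -0.30, background 38% and 36.3%). Pdk1, a kinase that inhibits pyruvate dehydrogenase, fell by 2.88 in Arg C and by 2.25 in linezolid, from 16.9 to 19.8 RPKM in DMSO to 1.32 to 2.17 and 1.47 to 6.15 RPKM. Pcx, which makes oxaloacetate from pyruvate, fell by 2.08 and by 1.64, and Pdpr, a regulator of the pyruvate dehydrogenase phosphatase, by 1.09 and by 0.75. Pdha1, the catalytic subunit of pyruvate dehydrogenase, was 0.52 and 0.45 higher. Of 17 genes that feed or drain the cycle 16 were tested, and 3 were higher and 12 lower in Arg C (median -0.38 against -0.47 over all genes), near the 16.5% and 70% of all genes. In linezolid 3 were higher and 8 lower (median -0.22 against -0.21, background 21% and 54.5%). Under median-ratio scaling 5 were higher and 4 lower in Arg C (median 0.02, background 41.8% and 41.4%), and 6 higher and 4 lower in linezolid (median -0.01, background 38% and 36.3%). Pck2, which turns oxaloacetate into phosphoenolpyruvate, was 1.16 and 1.06 higher. Me2 (malic enzyme) fell by 1.44 and by 1.20, Acly, which splits exported citrate, by 1.42 and by 0.68, and Pccb, of propionyl-CoA carboxylase, by 1.24 and by 0.78. Under median-ratio scaling each of these 8 genes was called in the same direction in both drugs, at -2.36 and -1.97 (Pdk1), -1.64 and -1.38 (Pcx), -0.53 and -0.49 (Pdpr) and 1.18 and 0.75 (Pdha1). The others were at 1.80 and 1.34 (Pck2), -0.82 and -0.91 (Me2), -0.78 and -0.39 (Acly) and -0.81 and -0.56 (Pccb).

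Of 5 cytosolic counterparts 4 were tested, with 2 higher and 2 lower in each drug, beside 16.5% and 70% of all genes in Arg C and 21% and 54.5% in linezolid. Under median-ratio scaling 2 were higher, 1 was lower and 1 was not called in each (background 41.8% and 41.4% in Arg C, 38% and 36.3% in linezolid). Idh1, the cytosolic relative of Idh2, fell by 1.77 in Arg C and by 0.53 in linezolid, and was at -1.26 and -0.27, both called, under median-ratio scaling. Aco1 was at -0.55 and -0.37, with 0.02 and -0.11, neither called, under median-ratio scaling. Mdh1 was 0.15 and 0.25 higher and Got1 (aspartate aminotransferase) 0.37 and 0.50 higher, and under median-ratio scaling they were 0.81 and 0.54 and 1.02 and 0.79 higher. All 4 assembly factors of succinate dehydrogenase were tested. In Arg C 2 were higher and 2 lower (background 16.5% and 70%), and in linezolid 2 were higher and 1 lower (21% and 54.5%). Under median-ratio scaling 3 were higher and 1 lower in Arg C (41.8% and 41.4%), and 3 higher and 0 lower in linezolid (38% and 36.3%). Sdhaf1 (0.38 and 0.47) and Sdhaf3 (0.47 and 0.23), which serve Sdhb, were higher in both drugs, also under median-ratio scaling (1.02 and 0.76, and 1.07 and 0.49). Sdhaf4 was at -1.13 and -0.45, both called, and under median-ratio scaling it was called in Arg C (-0.68) and not in linezolid (-0.22, adjusted p = 0.0861). Sdhaf2, which serves Sdha, was at -0.15 in Arg C, with 0.47 under median-ratio scaling, and was not called in linezolid on the RPKM scale (0.11) but was under median-ratio scaling (0.39).

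The gene whose pattern over the 18 samples was most like that of each enzyme was found by Pearson correlation of log2(RPKM + 1) among genes averaging 5 RPKM or more. These were Aarsd1 for Cs (r = 0.989), Cd3g for Idh2 (0.953), Ccdc43 for Idh3a (0.978), Nfkb1 for Ogdh (0.968), Ap1g2 for Suclg1 (0.988), Shkbp1 for Sdha (0.977), Taldo1 for Sdhb (0.940), Limd2 for Fh1 (0.797) and Dnajb11 for Mdh2 (0.954). The 9 enzymes themselves and clone-like symbols (Gm with digits, ending in Rik or holding a dot) were left out of this search. The 18 samples share drugs, cultures and the RPKM scale, so the correlations are descriptions. The weakest of these matches was that of Fh1.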

How the data were processed

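RNA of 18 sorted mouse T cell samples was measured in 54 libraries, 3 technical replicates each. The deposited table gives 1 value per gene and library. The unit RPKM is inferred from these deposited values, which are whole reads divided by gene length and library total for 19274 of 19284 genes with any value, to within 0.0001 reads; at the annotated length, 94.7% of values came out whole for 46 genes with a single exon. CASAVA and the build GRCm38.p5 are named in the submitters' processing notes, which give no role for them here. The name of the aligner and of the counting program, and its strand setting, were not given in the sources used here. Libraries held 7999811 to 12495908 reads by the recovered RPKM denominator. Technical replicates differed by about counting noise (chi-square per degree of freedom 1.04 to 1.11) and were averaged as 1 sample.

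Genes with 0.5 RPKM or more in at least 2 samples (11004) were fitted with limma 3.58.1 in R 4.3.3 (lmFit, eBayes with trend) on log2(RPKM + 1), with 1 coefficient per drug and cycle and an experiment term (8 residual degrees of freedom). The pseudocount of 1 understates changes of low genes. Differences between experiments came from a fit with that interaction (6 residual degrees of freedom). The procedure was tested on simulated data in which all samples varied independently. That test does not cover fractions that share a culture. Alternatives were other scalings, filters and pseudocounts, limma-voom on the recovered reads (9475 genes called for Arg C against DMSO, 9519 in the main analysis), the culture as a random block, the 54 libraries, and leaving out samples, technical replicates or an experiment. The estimated correlation within a culture was 0.574, which the main fit does not use. With the 3 cycles averaged the Arg C calls against DMSO held, at larger adjusted p, such as 0.0091 (Idh2), 0.0151 (Sdha), 0.0139 (Sdhb) and 0.0352 (Mdh2). In linezolid those of Ogdh and Mdh2 were lost. The replicate numbers in the labels count technical replicates. Within an experiment, libraries of the same number share the first part of their sample identifier in all 3 drugs. Each sample holds all 3 numbers and was averaged over them, so the numbers pair no samples. The enzymes and all gene lists were chosen with earlier results of these data known. Apart from the 9 enzymes and the other genes of the cycle, of which 1 is not reported here by name, the text names up to 4 tested genes per list with the smallest p in Arg C against DMSO, and the closest gene by correlation.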

Additional observations from a re-analysis of the deposited data

Results flagged for a closer look

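The drug difference was called unlike between the 2 experiments for several enzymes, by limma with Benjamini-Hochberg adjustment on the RPKM scale. Each drug had a single culture in each experiment, so the test compares single cultures by the spread of their sorted fractions. It cannot tell a difference between experiments from one between cultures. Values are the log2 difference against DMSO in experiment 2 minus that in experiment 1. For Arg C they were -0.22 for Cs (adjusted p = 0.00705), 0.34 for Idh3a (0.0441), 0.34 for Ogdh (0.00318), 0.19 for Sdha (0.0154), 0.28 for Sdhb (0.0127) and 0.26 for Fh1 (0.0255). For linezolid they were -0.25 for Cs (0.00266), 0.37 for Idh2 (0.00836), 0.69 for Idh3a (0.00124), 0.29 for Ogdh (0.0056) and 0.19 for Sdhb (0.0471). The median over all genes was 0.14 for Arg C and 0.17 for linezolid. Under median-ratio scaling the values still called among these were Cs in both drugs (-0.44 and -0.50) and Idh3a in linezolid (0.48, adjusted p = 0.0111). No sample was flagged as standing apart from its group for any of the 9 genes in 27 groups of 6 samples. Each group pools 3 cycles and 2 experiments, whose differences widen its spread, so this check could miss an outlying sample.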

How the results depend on the processing

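The direction of Cs, Sdhb and Mdh2 (higher) and of Idh3a and Suclg1 (lower) against DMSO over all cycles was the same under every alternative run. For Suclg1 the Arg C difference was not called under median-ratio scaling. A reversal is counted where the value was called before or after. Under median-ratio scaling the log2 difference over all cycles turned to 0.19 (Idh2), 0.13 (Ogdh) and 0.37 (Sdha) in Arg C, to 0.09 (Ogdh) and 0.29 (Sdha) in linezolid, and in Arg C against linezolid to 0.06 (Idh2), 0.24 (Idh3a), 0.04 (Ogdh), 0.18 (Suclg1), 0.08 (Sdha), 0.18 (Sdhb) and 0.34 (Fh1). At single cycles 2, 3 and 4 it turned in Arg C to 0.02, 0.29 and 0.26 (Idh2), 0.12, 0.15 and 0.12 (Ogdh) and 0.40, 0.44 and 0.27 (Sdha), to 0.00 at cycle 3 (Suclg1) and to 0.60 at cycle 2 (Fh1), and in linezolid to 0.19 and 0.01 at cycles 2 and 4 (Ogdh) and 0.33 and 0.21 at cycles 3 and 4 (Sdha). Between experiments it turned to -0.04 (Sdha, Arg C), -0.18 (Sdha, linezolid) and -0.06 (Sdhb, linezolid). Under upper-quartile scaling the over-all values turned to 0.01 (Idh2) and 0.18 (Sdha) in Arg C, 0.15 (Sdha) in linezolid, and 0.00 (Idh2), 0.12 (Suclg1), 0.02 (Sdha), 0.12 (Sdhb) and 0.28 (Fh1) between the drugs; at single cycles they turned to 0.11 and 0.10 (Idh2, cycles 3 and 4), 0.19, 0.24 and 0.10 (Sdha, cycles 2 to 4) and 0.40 (Fh1, cycle 2) in Arg C and 0.18 (Sdha, cycle 3) in linezolid. The cause of these turns was not tested. With totals free of ribosomal-protein and mitochondrial genes the Arg C differences were 1.02 (Cs), -0.26 (Idh2), -0.96 (Idh3a), -0.32 (Ogdh) and -0.54 (Suclg1). Those of Sdha, Sdhb, Fh1 and Mdh2 were -0.10, 0.50, 0.29 and 0.41, and all were called. In linezolid Cs (0.76), Idh3a (-0.98), Suclg1 (-0.46), Sdhb (0.59), Fh1 (0.21) and Mdh2 (0.30) were called. Idh2 (-0.06), Ogdh (-0.11) and Sdha (0.09) were not.

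Counts of enzymes called moved as follows. Under median-ratio scaling they were 7 higher and 1 lower in Arg C, 5 higher in linezolid, 6 higher and 0 lower between the drugs, 3 higher in the Arg C course and 1 lower in the linezolid course; under upper-quartile scaling 5 and 2 in Arg C, 5 higher in linezolid, 5 and 0 between the drugs and 0 in the DMSO course. Between the drugs there were 3 lower with totals free of ribosomal-protein and mitochondrial genes, 0 higher and 1 lower with cycles averaged, and 0 and 3 with the culture as a random block. In the DMSO course 0 were higher with a pseudocount of 0.1, no trend, no filter, the stricter filter (1 RPKM in 9 samples), limma-voom or no experiment term, and 4 with the culture as a random block or only the DMSO groups. In the linezolid course 2 were higher without a filter or by limma-voom, 1 higher and 0 lower without the experiment term, and 1 lower without trend or with only the linezolid groups. The culture as a random block gave 1 lower in the Arg C course, 1 higher for the Arg C interaction with cycle and 1 lower for that of linezolid.

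For the experiment interaction, Arg C and linezolid had 0 and 1 higher and 2 and 3 lower under median-ratio scaling, 1 and 1 higher and 2 and 2 lower under upper-quartile scaling, and with ribosomal-free totals 1 higher for Arg C and 2 lower for linezolid. Treating the 54 libraries as samples, with or without the technical replicate number as a replicate block, gave the same counts, which overstate the number of samples: 5 higher and 1 lower in the DMSO course, 2 lower in the Arg C course, 2 higher and 1 lower for the Arg C interaction with cycle, 1 higher and 3 lower for that of linezolid, 2 lower for Arg C between experiments, and 7 higher and 2 lower for linezolid between experiments.

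Leaving out 1 sample, 1 technical replicate or 1 experiment gave 3 to 4 higher and 5 to 5 lower in Arg C, 3 to 4 and 2 to 4 in linezolid, 0 to 1 and 3 to 5 between the drugs, where experiment 2 left out gave 0 and 3. Leaving out samples or technical replicates gave 0 to 1 higher in the DMSO course, 3 to 5 in the Arg C course, 0 to 4 higher and 0 to 2 lower in the linezolid course, and 2 to 5 higher (Arg C) and 3 to 4 higher with 1 to 2 lower (linezolid) between experiments. A sample left alone at its drug and cycle was assumed to vary like the others. With 124 reads in its lowest sample, Idh3a had the least depth of the 9.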
